A study of Mus musculus with 30 samples.

Results

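A set of 8 Toll-like receptors other than TLR3 that signal through MYD88, together with the co-receptor CD14 and MYD88 itself, was followed in mouse microglia from late gestation to adulthood. The members were chosen by gene symbol and were Tlr1, Tlr2, Tlr4, Tlr5, Tlr6, Tlr7, Tlr9, Tlr13, Cd14 and Myd88. All 10 had a value, on 11 of the 14225 transcript rows of the table, because Tlr1 was listed as 2 transcripts. No measured value was used to choose them, but they were chosen with earlier results of these data known.

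All mice were C57BL/6J. Their mothers had been injected during gestation with saline (Saline) or, to model maternal immune activation (MIA), with the double-stranded RNA analog poly(I:C). Microglia, the resident macrophages of the brain, were isolated from whole brain with CD11B beads, and their poly(A) RNA was sequenced at E17, P7 and P20 in both kinds of offspring. At P60 the offspring had received either control chow (CTRL) or chow with PLX5622, an inhibitor of CSF1R that depletes microglia, followed by control chow while microglia repopulated the brain (MG-REP). This gave 10 groups of 3 libraries, and a library held the pooled brains of 1 litter at E17, 3 pooled brains at P7 and 1 brain at P20 and P60. The labels gave no sex, litter or batch, and p-values measure only the spread between these libraries.

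Toll-like receptors recognize microbial molecules. TLR2 pairs with TLR1 or TLR6 to bind bacterial lipopeptides, TLR4 binds lipopolysaccharide that CD14 hands over, and TLR5 binds flagellin, all at the cell surface. TLR7, TLR9 and TLR13 sit in endosomes and detect single-stranded RNA, unmethylated CpG DNA and bacterial ribosomal RNA. All of these receptors recruit MYD88, which leads through IRAK and TRAF6 enzymes to NF-kB and to inflammatory cytokines, whereas TLR3, the receptor of poly(I:C), does not use it. Microglia are among the main cells of the brain that carry these receptors.

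Positions are given on the mm10 build (GRCm38.p6). Tlr2 is on chromosome 3 (83836272 to 83841824), Tlr4 on chromosome 4 (66827551 to 66846581) and Tlr5 on chromosome 1 (182954752 to 182976044). Tlr1 (64924680 to 64933600) and Tlr6 (64953092 to 64970942) are neighbours on chromosome 5 and close relatives in sequence, so that short reads could be split between them. Tlr9 (106222598 to 106226876) and Myd88 (119335934 to 119340018) are on chromosome 9, and Tlr7 (167303380 to 167330574) and Tlr13 (106143275 to 106160493) on chromosome X.

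RefSeq promoter windows, from 250 bases before to 50 after a transcription start, were at hand for 7 of the 10 genes (9 windows). Cd14, Tlr4 and Tlr7 had no window and were not searched. They were searched on both strands for the NF-kB consensus, AP-1 (TGANTCA), PU.1 (GAGGAAGT), the core of the interferon-stimulated response element (GAAA, any 2 bases, GAAA) and SP1 (GGGCGG). The 30 bases around some of the matches in Tlr2, Tlr5, Tlr6 and Myd88 are shown, with the match in capitals. A reverse-strand match is written as it stands on the gene's strand.
Tlr2, NF-kB, chr3:83841762-83841791, minus strand: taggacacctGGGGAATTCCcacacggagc
Tlr2, NF-kB, chr3:83841597-83841626, minus strand: ccctgacctgGGGACATCCCcttccctcac
Tlr5, SP1, chr1:182954734-182954763, plus strand: atcaagagttgtGGGCGGggctccagcagc
Tlr6, interferon-stimulated element, chr5:64959263-64959292, minus strand: tgactattctTTTCTCTTTCactttctgtt
Myd88, interferon-stimulated element, chr9:119340039-119340068, minus strand: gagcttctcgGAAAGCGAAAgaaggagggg
The NF-kB consensus was in the window of Tlr2 alone among the 9, against 4.51% of 32851 windows of all genes; another match in Tlr2 overlapped the first by all but 1 base, and a further match in Tlr6 overlapped the one shown. The interferon-stimulated core was in windows of Tlr6 and Myd88 (3.44% of all windows), PU.1 in those of Tlr1 and Tlr9 (3.2%), AP-1 in that of Tlr9 (7.81%) and SP1 in those of Tlr2, Tlr5 and Myd88 (35.7%). A match describes the letters only. The matches shown for Tlr2 and Tlr6 lie inside the gene spans given above, so their windows may not be at the start of the measured transcript.

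The values were TPM, relative transcript abundances that are scaled for transcript length. The steps between low values gave an estimated 8010000 to 12840000 assigned reads per library. Libraries of a group correlated at 0.956 or above on the log2 scale. Microglial markers were strong throughout: the 8 of 9 listed markers with a row (P2ry12, Tmem119 and others) summed to 16514 to 51828 TPM per library. The Y-linked genes and Xist, which marks female cells, split the P60 libraries. In both MG-REP groups every library carried Xist (159 to 174 TPM) and almost no Y-linked transcript, whereas in each CTRL group 1 library carried Xist and 2 carried Y-linked transcripts (summed 268 to 318 TPM). All 6 libraries at P20 were of the Xist kind, while those at E17 and all but 1 of those at P7 carried both.

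Levels of the members differed widely in these microglia. Averaged over the 30 libraries, Cd14 was the most abundant (789 TPM), followed by Tlr2 (477 TPM), Tlr13 (158 TPM), Myd88 (157 TPM) and Tlr9 (123 TPM). Tlr4 (46.4 TPM), Tlr6 (35.4 TPM) and Tlr5 (22.0 TPM) were lower. Tlr1 was at 5.03 TPM for NM_001276445 and 0.710 TPM for NM_030682, which rested on an estimated 2 to 20 reads per library. The Tlr7 row was 1 of 5 curated transcripts (NM_001290757) and held 0 to 0.780 TPM, an estimated 0 to 12 reads per library, so it does not give the level of the gene. How reads shared by transcripts of a gene were assigned is not given in the sources used here.

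**Figure D1:**
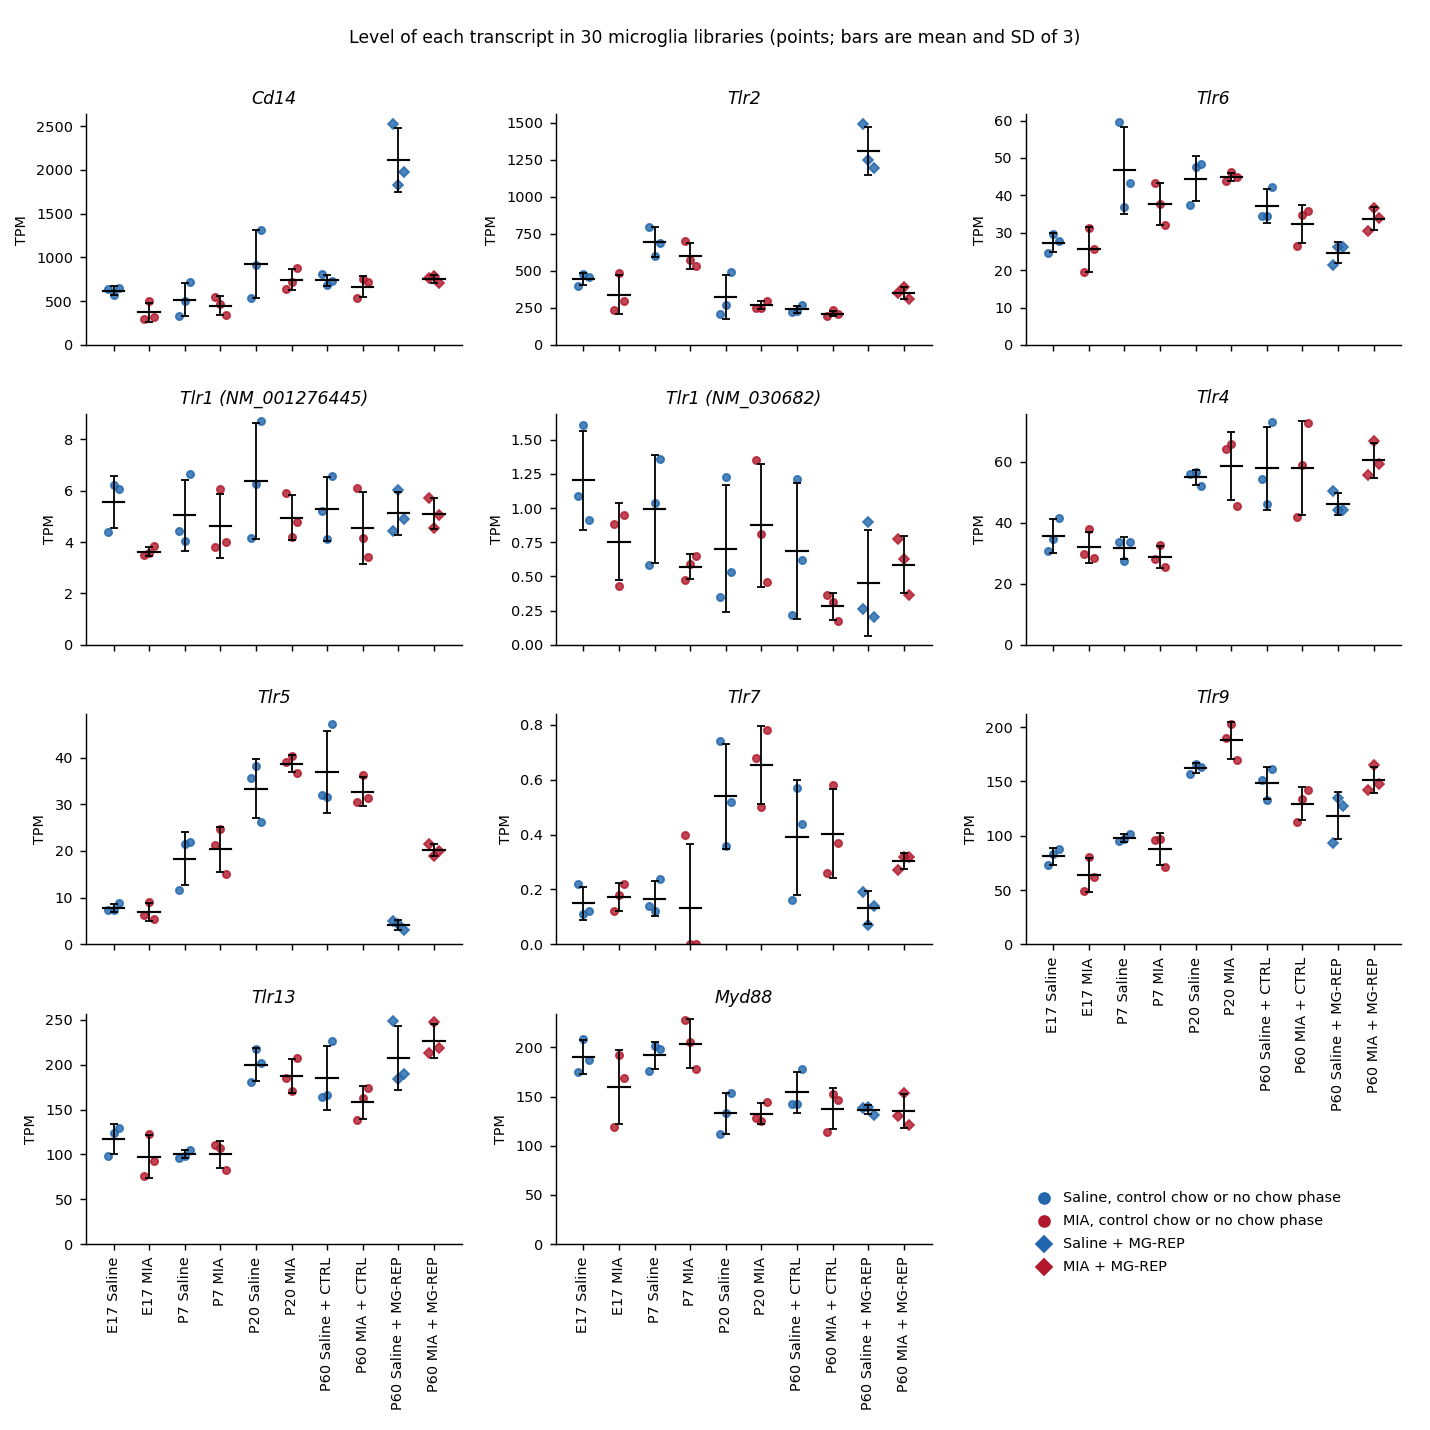
TPM (vertical axes, linear, each from 0) of the 11 transcripts in 10 groups; points are libraries and bars the mean and SD of 3. Cd14 and Tlr2 stand apart in P60 Saline + MG-REP (1826 to 2521 and 1190.5 to 1489.7 TPM), where Tlr5 is at its lowest (3.08 to 5.08 TPM).

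The comparison of MG-REP with CTRL at P60 asks how microglia that repopulated the brain differ from those that were never depleted. In Saline offspring, Tlr2 and Cd14 rose after repopulation, Tlr5 fell strongly, and Tlr6 fell slightly. Tlr4, the receptor that CD14 serves, the endosomal receptors and Myd88 did not pass the test. Of the 11 transcripts 2 were called higher and 2 lower at an adjusted p under 0.05 (limma on log2(TPM + 1), Benjamini-Hochberg over all 14225 transcripts), against 26.7% of all transcripts called, 11.9% higher and 14.9% lower. Their share was thus near the background, and the changes are described gene by gene. The RNA is of bulk cells, in which fewer cells of a type and less RNA per cell cannot be told apart.

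Tlr2 measured 1489.7, 1245 and 1190.5 TPM in Saline + MG-REP, against 223, 227 and 268 TPM in Saline + CTRL. The groups lay far apart, and no other group reached the lowest of these 3 libraries. The mean was 5.46-fold higher (1308 ± 159 against 239 ± 25.1 TPM, SD, n = 3 each), or 2.44 ± 0.23 (SE) on the log2 scale, with an adjusted p of 1.83e-08.

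Cd14, which captures lipopolysaccharide and lipopeptides for TLR4 and TLR2, measured 2521, 1826 and 1976 TPM in Saline + MG-REP. In Saline + CTRL it measured 805, 680.0 and 734 TPM. Every repopulated library was above every library of the other 9 groups, the next highest being 1312 TPM at P20. The log2 fold change was 1.5 ± 0.27 (adjusted p = 0.00014), or 2.85-fold in mean TPM.

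Tlr5, the flagellin receptor, measured 5.08, 4.34 and 3.08 TPM in Saline + MG-REP and 32.0, 31.6 and 47.2 TPM in Saline + CTRL. The repopulated libraries were below all libraries of every other group, E17 included (5.44 to 9.13 TPM). The mean was 8.86-fold lower and the log2 fold change was -2.87 ± 0.23 (adjusted p = 9.52e-10).

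Tlr6, a partner of TLR2, measured 21.4, 26.3 and 26.2 TPM after repopulation and 34.3, 34.5 and 42.3 TPM in Saline + CTRL. The groups did not overlap, but the step was small (log2 fold change -0.57 ± 0.17, adjusted p = 0.016). The call was lost under 5 of 9 alternative fits, with adjusted p of 0.171 under median-ratio scaling and 0.199 with Xist as a covariate, and without Saline + CTRL replicate 3 (0.0776) or Saline + MG-REP replicate 1 (0.096).

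The other partner, Tlr1, was at 4.43, 6.04 and 4.89 TPM after repopulation and 5.22, 4.10 and 6.59 TPM in Saline + CTRL (NM_001276445, log2 fold change -0.03 ± 0.24, adjusted p = 0.943). The row of Tlr2 therefore exceeded the rows of its partners by more after repopulation. The Tlr6 row was 1 of 3 curated transcripts, so the ratios compare rows and do not give the ratio of the genes. The ratio of Tlr2 to Tlr6 TPM was 45.4 to 69.6 in Saline + MG-REP, 6.34 to 6.60 in Saline + CTRL, 9.06 to 11.5 in MIA + MG-REP and 5.79 to 7.32 in MIA + CTRL. The ratio of Tlr2 to both Tlr1 transcripts was 179 to 318 in Saline + MG-REP and 37.2 to 42.8 in Saline + CTRL. These ratios contain the rise of Tlr2 already tested and are given without a test.

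The remaining members did not pass the test. The Tlr7 transcript was at 0.0700 to 0.190 TPM in Saline + MG-REP and 0.160 to 0.570 TPM in Saline + CTRL, 2.92-fold lower in mean TPM at a few reads per library (log2 fold change of TPM + 1 -0.28 ± 0.13, adjusted p = 0.118). Tlr4 measured 44.0 to 50.4 TPM in Saline + MG-REP and 46.2 to 72.8 TPM in Saline + CTRL (log2 fold change -0.29 ± 0.18, adjusted p = 0.263). Myd88 did not overlap between the groups, at 131 to 139.9 against 142 to 178 TPM, but its difference was small (-0.17 ± 0.15, adjusted p = 0.466). Of the endosomal receptors, Tlr9 was at 93.7 to 135 against 133 to 161 TPM (-0.33 ± 0.15, adjusted p = 0.107) and Tlr13 at 184 to 248 against 163 to 226 TPM (0.17 ± 0.16, adjusted p = 0.506). In all, 5 of 11 transcripts did not overlap between the groups, against 38.4% of all transcripts.

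In MIA offspring the same comparison called no member, with 0.555% of all transcripts called, and 3 members had an unadjusted p under 0.05, against 6.20% of all transcripts. Tlr2 measured 351, 391 and 308 TPM in MIA + MG-REP and 194, 233 and 208 TPM in MIA + CTRL, a log2 difference of 0.72 ± 0.23 (adjusted p = 0.298). Tlr5 measured 21.4, 18.8 and 20.1 TPM against 30.5, 36.2 and 31.3 TPM, a difference of -0.67 ± 0.23 (adjusted p = 0.346). Neither gene overlapped between the groups, and both differences had the sign seen in Saline offspring. The smallest p was that of Tlr13, at 213, 248 and 219 against 138, 163 and 174 TPM (0.52 ± 0.16, adjusted p = 0.272). Cd14 measured 761, 792 and 704 TPM against 533, 754 and 714 TPM (0.19 ± 0.27, adjusted p = 0.979). In all, 4 of 11 transcripts did not overlap between the groups, Tlr9 being the fourth, against 17.8% of all transcripts.

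**Figure D2:**
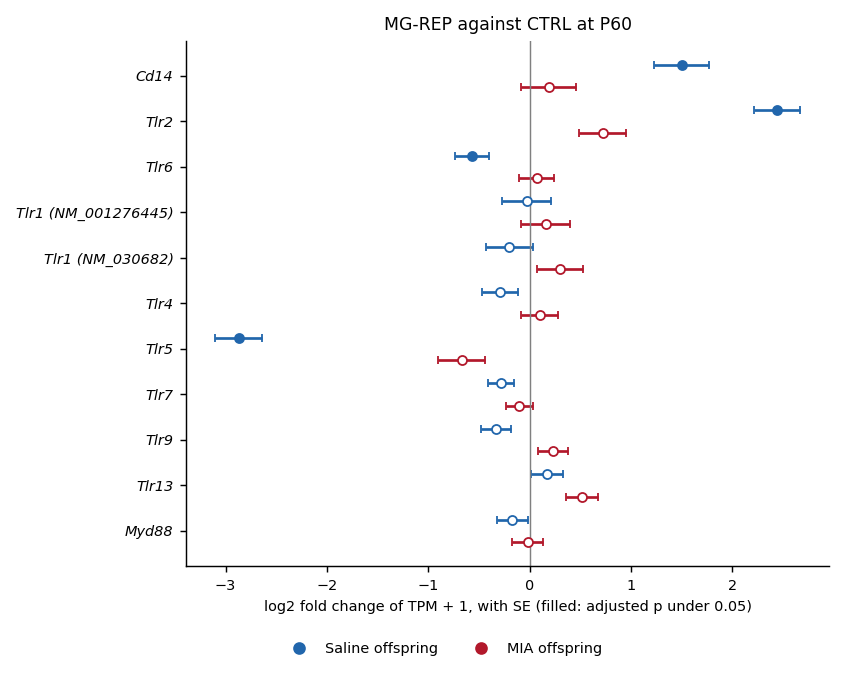
Log2 fold change of TPM + 1 (horizontal axis, with SE) of MG-REP against CTRL for each transcript, in Saline (blue) and MIA (red) offspring; filled points have an adjusted p under 0.05. Tlr2 lies at 2.44 in Saline and 0.72 in MIA offspring, Tlr5 at -2.87 and -0.67.

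The difference between the repopulation steps of MIA and Saline offspring was tested directly. It shares its libraries with both comparisons above. It was called for 3 of 11 transcripts, against 10.5% of all transcripts (4.42% higher and 6.09% lower in MIA than in Saline offspring). The step of Tlr5 was less negative in MIA offspring by 2.20 ± 0.32 on the log2 scale (adjusted p = 5.05e-05), and that of Tlr2 was smaller by -1.72 ± 0.33 (adjusted p = 0.000937). That of Cd14 differed by -1.31 ± 0.38 (adjusted p = 0.026). Among the members not called, Tlr6 (0.64 ± 0.24, adjusted p = 0.107) and Tlr9 (0.56 ± 0.21, adjusted p = 0.101) had the next largest differences.

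Because every MG-REP library was of the Xist kind and most CTRL libraries were not, these tests were repeated with only the CTRL libraries that carried Xist, an alternative chosen after the data were seen. It leaves 1 CTRL library per group, which is assumed to vary like the other groups. In Saline offspring Tlr2 (2.54, adjusted p = 4.84e-05), Cd14 (1.37, adjusted p = 0.0263) and Tlr5 (-2.69, adjusted p = 1.37e-05) stayed called and Tlr6 did not (-0.47, adjusted p = 0.236). The difference between MIA and Saline offspring stayed called for Tlr5 (2.11, adjusted p = 0.0121), but not for Tlr2 (-1.71, adjusted p = 0.0552) or Cd14 (-0.88, adjusted p = 0.512). The difference for Cd14 was also lost under median-ratio scaling (adjusted p = 0.0533), under quantile normalization (0.122) and in 6 of 12 fits that left out 1 library, with a highest adjusted p of 0.0841 without Saline + MG-REP replicate 1.

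Other cell types and states were measured beside these members. In Saline + MG-REP, 7 of 8 microglial markers were lower than in Saline + CTRL (summed 24949 to 28543 against 35859 to 51828 TPM), and all 6 mitotic genes were higher (335 to 974 against at most 18.5 TPM). In MIA + MG-REP the corresponding sums were 39931 to 44466 and 14.2 to 17.1 TPM, and none of these genes was called. Immediate early genes, which respond to cell handling as well as to signals, were lower in Saline + MG-REP in 6 of 7 (10211 to 15626 against 26752 to 37094 TPM).

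Neutrophils and monocytes, which carry Tlr2 and Cd14 as well, had 8 of 9 listed markers with a row. These summed to 88.9, 4586 and 329.9 TPM in the 3 Saline + MG-REP libraries and 674 to 790.3 TPM in Saline + CTRL. Without the library at 4586 TPM, the log2 fold change was 2.48 for Tlr2 and 1.60 for Cd14. Ccr2, a chemokine receptor of monocytes, was the only marker of that list called higher (58.2 ± 7.41 against 18.8 ± 0.776 TPM), and 1 was called lower. Border macrophage markers (6 of 8 with a row) summed to 1320.3, 687 and 689 TPM in Saline + MG-REP and 422 to 568 TPM in Saline + CTRL. Of these Pf4 rose (577 ± 281 against 137 ± 17.6 TPM), Mrc1 was at 186 ± 47.4 against 195 ± 18.2 TPM and Cd163 was lower. The library at 1320.3 TPM was also the highest for Tlr2 and Cd14, and without it their log2 fold changes were 2.35 and 1.36. No marker of these lists was at 0 in all libraries of either group. The list of B cells and plasmacytoid dendritic cells had 1 marker called higher, the interferon-induced Bst2 (2.18), and 2 lower, and that of endothelial cells had 2 of 4 lower. The part of other cells in the members' values was not tested beyond these omissions.

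The rest of the pathway was described by lists of 60 genes, of which 49 had a row (51 transcripts). In Saline offspring 14 transcripts were higher and 5 lower after repopulation, against 11.9% and 14.9% of all transcripts. In MIA offspring none was called (0.555% of all transcripts), and 8 had an unadjusted p under 0.05 (6.20% of all transcripts). All 10 measured response genes rose in Saline offspring, whereas none of the 14 adaptors and signalling enzymes was called (-0.35 to 0.29). Of the latter, 4 had means under 1 TPM in Saline + MG-REP and Saline + CTRL. These were Irak1 (0.290 against 0.657 TPM), Map3k7 (0.617 against 0.873), Traf3 (0.967 against 0.780) and Traf6 (0.783 against 0.630). At that level log2(TPM + 1) understates changes, so the missing call does not show that they were unchanged. Each of these genes was listed as 1 transcript, which may not give the level of the gene. The median log2 fold change of the response genes in Saline offspring was 2.42, against -0.14 over all transcripts. With a fit of only the groups compared, or with only CTRL libraries that carried Xist, 12 rather than 19 pathway transcripts were called.

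Among the response genes, Il12b, the shared subunit of IL-12 and IL-23, was at 127 to 314 TPM in Saline + MG-REP and 0.440 to 1.07 TPM in Saline + CTRL (log2 fold change 6.56 ± 0.51, adjusted p = 6.71e-10). The interferon-induced chemokine Cxcl10 was at 828 to 1363 against 48.1 to 56.8 TPM (4.26 ± 0.32, adjusted p = 3.84e-10). Ptgs2, which encodes the prostaglandin enzyme COX-2, was at 379 to 514 against 36.4 to 48.3 TPM (3.29 ± 0.30, adjusted p = 8.34e-09). The other 7, Il1b, Ifnb1, Ccl5, Ccl2, Acod1, Tnf and Il10, rose by 1.76 to 3.01. Ccl5 alone overlapped between the groups, at 16.6 to 226 TPM in Saline + MG-REP and 8.81 to 36.4 TPM in Saline + CTRL. In MIA offspring 8 of the 10 were above CTRL and 2 below, by -0.19 to 1.49, with none called. The difference between MIA and Saline offspring was called for 6 of 10, among them Il12b (-5.85), Cxcl10 (-3.12) and Il1b (-2.76).

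Among receptors outside the members, Tlr8, an endosomal RNA receptor next to Tlr7 on chromosome X, was at 0.970 to 1.23 TPM in Saline + MG-REP and at most 0.160 TPM in Saline + CTRL (0.96 ± 0.09, adjusted p = 3.07e-08). Tlr3 was lower (63.9 ± 17.4 against 93.2 ± 5.73 TPM, adjusted p = 0.0134). Of co-receptors, chaperones and trafficking proteins only Hsp90b1, the chaperone that folds Toll-like receptors, was called (1475 ± 350.4 against 1035 ± 193 TPM, adjusted p = 0.0112). Of the NF-kB and IRF factors, Rel rose by 0.70 and the Nfkb2 transcript NM_001177369 by 0.59, while Rela (-0.57) and the non-coding Irf3 transcript NR_045611 (-0.70) fell. That Nfkb2 transcript was low (2.81 against 1.53 TPM). The other Nfkb2 transcript, NM_019408, was at 1.77 against 1.71 TPM and was not called. Of the inhibitors, the deubiquitinase Otud1 (-1.33) and Tollip (-0.32) fell and none rose.

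**Figure D3:**
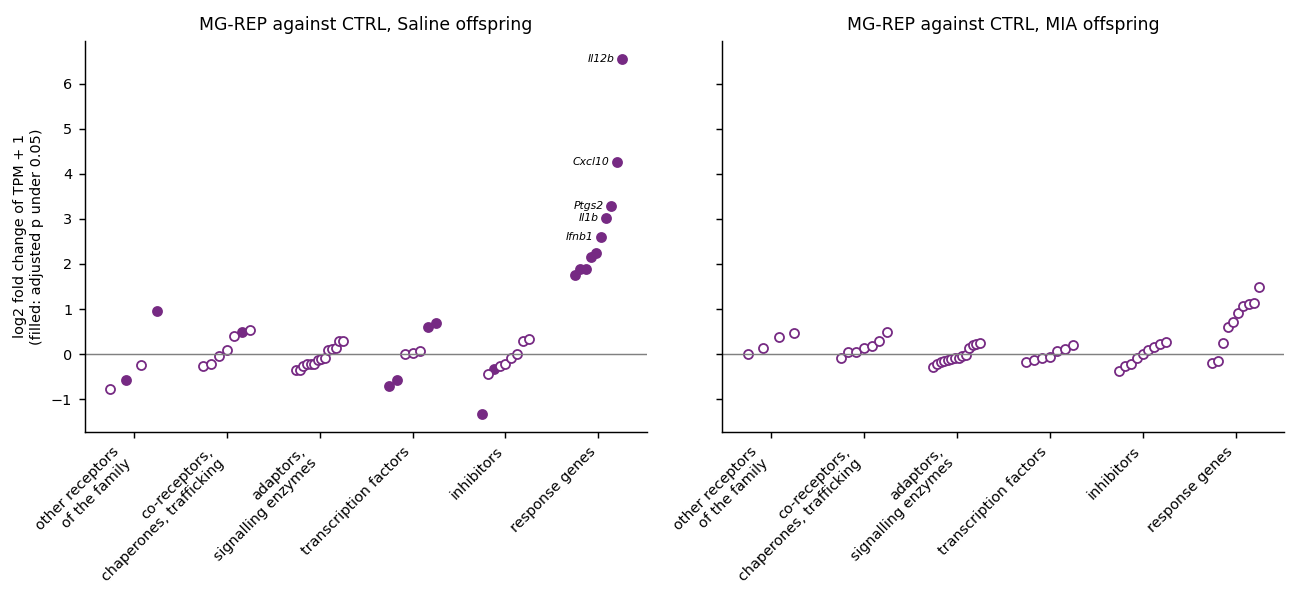
Log2 fold change of TPM + 1 (vertical axis) of MG-REP against CTRL for the pathway transcripts grouped by role, in Saline (left) and MIA (right) offspring; filled points have an adjusted p under 0.05. All 10 response genes lie at 1.76 or above in Saline offspring, and between -0.19 and 1.49, unfilled, in MIA offspring.

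The age groups ask how these receptors change as microglia mature. Steps between ages were the mean of the step in Saline and in MIA offspring, with P60 on control chow. From E17 to P7, Tlr5, Tlr2, Tlr6 and Tlr9 rose and no member fell, with 10.8% of all transcripts called (6.76% higher, 4.03% lower). From P7 to P20, 6 members rose and Tlr2 and Myd88 fell, with 50.7% of all transcripts called (21.6% higher, 29.1% lower). From P20 to P60 only Tlr9 was called, and fell, against 7.71% of all transcripts lower and 4.24% higher, and no member was without overlap between these ages (6.88% of all transcripts).

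Tlr2 rose to P7 and then fell. It measured 397, 478 and 457 TPM in Saline and 235, 487 and 295 TPM in MIA offspring at E17. At P7 it measured 796, 598 and 687 TPM and 699, 569.8 and 530.1 TPM, above all E17 libraries (log2 step 0.76 ± 0.16, adjusted p = 0.00324). At P20 it had fallen to 210.4, 267 and 489.5 TPM and 251, 251 and 298 TPM, below all P7 libraries (-1.18 ± 0.16, adjusted p = 2.3e-06). The value of 489.5 TPM, in P20 Saline replicate 3, stood above the other 5 libraries of that age. That library also held the highest Cd14 value of that age (1312 TPM).

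Myd88, the shared adaptor, fell at the same step. It was at 176 to 202 TPM in Saline and 178 to 228 TPM in MIA offspring at P7, and at 111 to 154 and 125 to 144 TPM at P20 (-0.58 ± 0.11, adjusted p = 0.000105). The groups did not overlap, and at P60 on control chow Myd88 was at 114 to 178 TPM. Its order over the 10 groups ran from 204 ± 25 TPM in P7 MIA to 132 ± 10.5 TPM in P20 MIA, and each neighbour in that order overlapped the next.

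Tlr5 climbed at both steps. It measured 7.33, 7.38 and 8.89 TPM in Saline and 6.34, 9.13 and 5.44 TPM in MIA offspring at E17, and 11.7, 21.4 and 22.0 and 21.4, 24.7 and 15.2 TPM at P7 (1.25 ± 0.16, adjusted p = 1.08e-05). At P20 it measured 35.6, 38.3 and 26.2 TPM and 39.1, 40.3 and 36.7 TPM (0.89 ± 0.16, adjusted p = 6.38e-05). The groups overlapped at neither step. The P60 CTRL libraries (30.5 to 47.2 TPM) overlapped those of P20 (26.2 to 40.3 TPM), and those of MIA + MG-REP (18.8 to 21.4 TPM) in that of P7.

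Tlr6 rose at the early step alone, from 24.5, 29.7 and 27.9 TPM in Saline and 19.6, 31.4 and 25.7 TPM in MIA offspring at E17 to 59.6, 36.9 and 43.4 and 43.3, 37.6 and 32.0 TPM at P7 (0.64 ± 0.12, adjusted p = 0.00111). The P7 libraries were all above those of E17. At P20 it measured 37.5 to 48.5 TPM (0.11 ± 0.12, adjusted p = 0.496). The ratio of Tlr2 to Tlr6 TPM was 11.5 to 16.6 over E17 and P7 and 5.44 to 10.1 at P20.

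The endosomal receptors and Tlr4 rose together between P7 and P20. Tlr9 measured 94.9, 96.8 and 102 TPM in Saline and 95.7, 96.9 and 71.1 TPM in MIA offspring at P7. At P20 it measured 157, 166 and 163 TPM and 190.3, 203 and 169.9 TPM (0.91 ± 0.11, adjusted p = 2e-07), without overlap. Its rise from E17, where it was at 49.2 to 87.9 TPM, to P7 was smaller (0.37 ± 0.11, adjusted p = 0.0261) and was lost under 3 of 8 alternatives (adjusted p up to 0.133, under median-ratio scaling) and in 4 of 12 fits that left out 1 library (up to 0.0796, without E17 MIA replicate 1). Its fall to P60 (113 to 161 TPM on control chow, -0.33 ± 0.11, adjusted p = 0.0439) was lost under 5 of 9 alternatives and in 9 of 12 fits that left out 1 library, and P20 and CTRL libraries differed in their Xist and Y-linked transcripts.

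Tlr13 measured 96.5, 98.7 and 105 TPM in Saline and 110.1, 107 and 82.5 TPM in MIA offspring at P7, and 181, 217 and 202 TPM and 185, 171 and 207 TPM at P20 (0.95 ± 0.12, adjusted p = 3.22e-07). The groups did not overlap. The transcript of Tlr7 measured 0 to 0.400 TPM at P7 and 0.360 to 0.780 TPM at P20 (0.48 ± 0.09, adjusted p = 0.000161), at a few reads per library. It was listed at 0 in 2 P7 MIA libraries.

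Tlr4 measured 33.8, 27.4 and 33.7 TPM in Saline and 28.1, 32.6 and 25.4 TPM in MIA offspring at P7, and 56.0, 56.7 and 52.1 TPM and 64.2, 65.8 and 45.6 TPM at P20 (0.89 ± 0.13, adjusted p = 4.61e-06). Its co-receptor Cd14 rose at the same step, from 336, 504 and 715 and 546, 469 and 337 TPM to 537, 912 and 1312 and 638, 717 and 876 TPM (0.77 ± 0.19, adjusted p = 0.00153). Tlr4 did not overlap between the ages, whereas Cd14 did. Neither transcript of Tlr1 was called at any step. In all, 6 of 11 transcripts did not overlap between P7 and P20, against 29.2% of all transcripts, and 3 of 11 between E17 and P7, against 5.71%.

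Over the step from P7 to P20, 7 of 8 microglial markers rose (20021 to 29252 against 36612 to 49337 TPM) and all 6 mitotic genes fell (705 to 837 against 17.5 to 31.4 TPM). Border macrophage markers summed to 1029 to 2068 TPM at P7 and 626 to 890.3 TPM at P20, and oligodendrocyte markers to 122 to 240.2 and 955 to 2619 TPM. Libraries with Y-linked transcripts were 5 of 6 at P7 and 0 at P20. The part of these in the members' steps was not tested, other than by a fit with Xist as a covariate, which kept all 8 calls.

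Elsewhere in the pathway, 13 of 51 transcripts were higher and 12 lower at P20 than at P7, a share near that over all transcripts (21.6% higher, 29.1% lower). Receptors outside the members rose in 3 of 4: Tlr3 (1.54), Tlr12 (1.00) and Tlr11 (0.51). Tlr11 was very low, with means of 0.0467 TPM in Saline and 0.143 TPM in MIA at P7, and 0.547 and 0.597 TPM at P20. Among response genes the chemokines Ccl2 (-1.74) and Cxcl10 (-1.47) fell, as did Rel (-0.77) among the NF-kB factors, while Ccl5 (2.41) and Il12b (1.45) rose. Il12b was low, at 0.0900 to 1.36 TPM in Saline and 0.310 to 0.850 TPM in MIA at P7. At P20 it was at 1.76 to 13.8 and 2.72 to 3.29 TPM. From E17 to P7, 2 response genes, Tnf (1.67) and Ccl2 (0.86), rose and 2, Ccl5 (-3.18) and Acod1 (-0.97), fell.

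**Figure D4:**
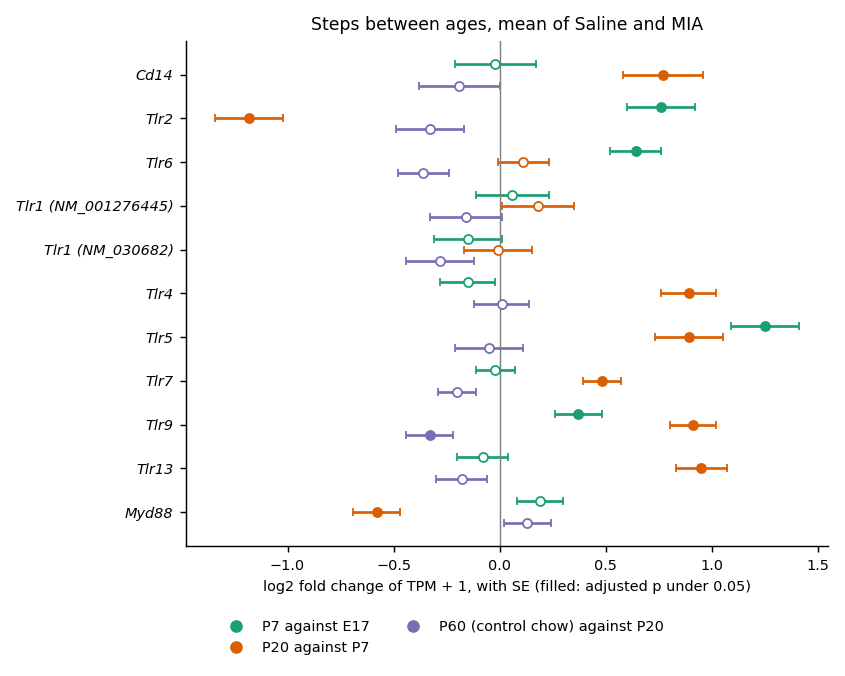
Log2 fold change of TPM + 1 (horizontal axis, with SE) of each transcript from E17 to P7 (green), P7 to P20 (orange) and P20 to P60 on control chow (purple); filled points have an adjusted p under 0.05. At the step to P20 Tlr2 lies at -1.18 and Myd88 at -0.58, while 6 transcripts lie between 0.48 and 0.95.

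The comparison of MIA with Saline offspring asks whether immune activation of the mother changed these receptors in the offspring's microglia. No member was called at any of the 4 ages or averaged over them, and neither was any of the 14225 transcripts (0% called at each age). At an unadjusted p under 0.05 there were 3 of 11 member transcripts at E17, against 4.11% of all transcripts, and none at P7 (2.36%), P20 (3.21%) or P60 (1.80%).

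At E17 the member with the smallest p was Cd14. It measured 302, 498 and 318 TPM in MIA and 642, 566 and 654 TPM in Saline offspring. The groups did not overlap, the difference was -0.77 ± 0.27 on the log2 scale and the adjusted p was 0.754. Across the members 10 of 11 transcripts were lower in MIA, with a median of -0.29 against 0.10 over all transcripts. These include Tlr2 (235, 487 and 295 against 397, 478 and 457 TPM), and 2 of 11 did not overlap, against 6.05% of all transcripts. In 1 of these 3 MIA libraries neuron markers summed to 869.6 TPM, against 107 to 225 TPM in Saline, and microglial markers were at their lowest (16514 TPM). In another MIA library, with Cd14 at 318 TPM, endothelial markers summed to 2935 TPM, against 607 to 1906 TPM in Saline, and microglial markers to 20137 TPM, against 22671 to 28737 TPM. Without the first library the difference for Cd14 was -0.64, and without the second it was -0.67. Neutrophil and monocyte markers summed to 365, 1429 and 464 TPM in the MIA libraries, in the order above, and 829 to 1065 TPM in Saline. Border macrophage markers summed to 788, 1271 and 519 TPM in MIA and 944 to 1270.4 TPM in Saline. The part of these cells in the lower values was not tested.

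At the later ages the members with the smallest p were Tlr6 at P7 (37.7 ± 5.65 in MIA against 46.7 ± 11.7 TPM, log2 difference -0.28 ± 0.17, adjusted p = 1) and Tlr9 at P20 (188 ± 16.7 against 162 ± 4.71 TPM, 0.21 ± 0.15, adjusted p = 1). At P60 on control chow it was the Tlr1 transcript NM_030682, at 0.280 ± 0.0985 against 0.683 ± 0.498 TPM. Tlr9 at P20 did not overlap between the groups, at 169.9 to 203 against 157 to 166 TPM, and was the only member of which this held at that age (9.69% of all transcripts). It held for no member at P7 (4.12%) or P60 (5.93%). Averaged over the 4 ages, 3 of 11 transcripts had an unadjusted p under 0.05 (Cd14, Tlr2 and the Tlr1 transcript NM_001276445), against 3.35% of all transcripts. The smallest p was that of Cd14 (-0.33 ± 0.13, adjusted p = 0.931).

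**Figure D5:**
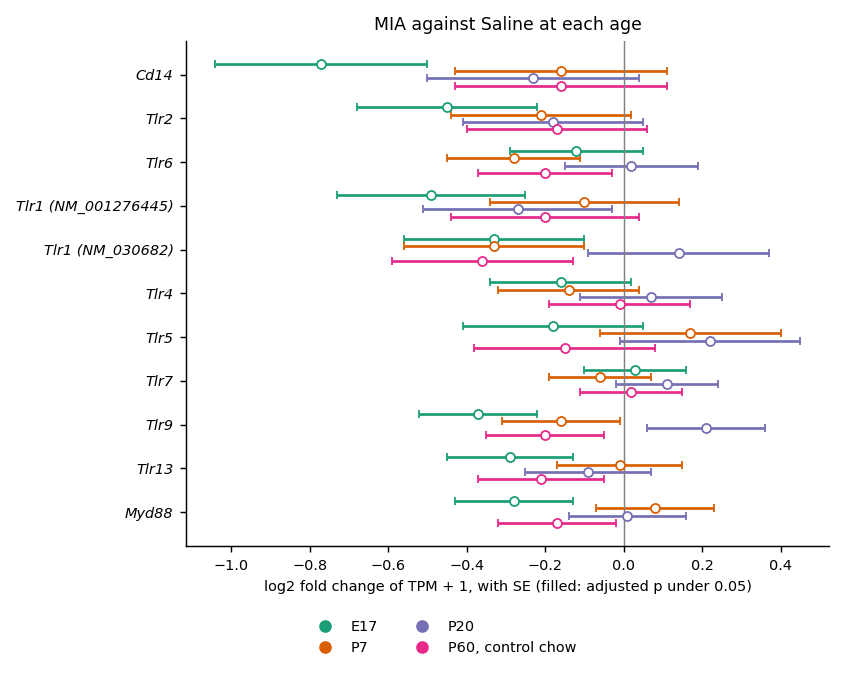
Log2 fold change of TPM + 1 (horizontal axis, with SE) of MIA against Saline offspring for each transcript at 4 ages; no point is filled, since no adjusted p was under 0.05. Cd14 at E17 lies farthest from 0, at -0.77.

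Over all 10 groups, the levels of some members could be ordered in part beyond the spread of 3 libraries. For Tlr2, Saline + MG-REP (1308 ± 159 TPM), both P7 groups (694 ± 99.3 and 599.7 ± 88.4 TPM) and E17 Saline (444 ± 42.2 TPM) led the order. Saline + MG-REP lay above all other libraries and the P7 groups above all of the rest, while E17 Saline overlapped E17 MIA and P20 Saline. For Cd14 only Saline + MG-REP was separate. For Tlr13, all 6 groups at P20 and P60 lay above those at E17 and P7, the gap being between MIA + CTRL (158 ± 18.5 TPM) and E17 Saline (117 ± 16.7 TPM). The same held narrowly for Tlr4, with 41.8 TPM in the lowest library at P20 and P60 and 41.6 TPM in the highest at E17 and P7. For Tlr5 the P20 and CTRL libraries (26.2 to 47.2 TPM) lay above those of P7 and MIA + MG-REP (11.7 to 24.7 TPM). Those of E17 (5.44 to 9.13 TPM) came next, and Saline + MG-REP closed the order at 4.17 ± 1.01 TPM.

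The transcripts whose log2 group means ran most like those of each member were found by Pearson's r over the 10 groups, which is a description over means that share libraries. For Tlr2 these were Ifi30 (0.975), Gab3 (0.969) and Ccl2 (0.967), and for Cd14 they were Cxcl16 (0.960), Ifi203 (0.957) and Tnip3 (0.952). For Tlr5 they were Slc24a3 (0.988), Zfp770 (0.987) and Plcl2 (0.984), and for Tlr6 Bmp2k (0.970), Zfp984 (0.963) and Aim2 (0.958). For Tlr4 they included E230029C05Rik (0.993) and Ndrg1 (0.985), and for Tlr13 Fcgr1 (0.990), C1qa (0.982) and Cd84 (0.982). Tlr9 ran with Gpr146, Epb41l2 (both 0.981) and Cd33 (0.979), and Myd88 with Cd79a (0.964), Aph1a (0.957) and Gadd45a (0.943). Tlr1 (NM_001276445) had the weakest likeness, with Ptprj at 0.888.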

How the data were processed

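RNA of CD11B bead-isolated microglia was measured in 30 libraries, each grouped by its label. The authors prepared non-stranded poly(A) libraries, so that a gene and an antisense partner cannot be told apart, and aligned the reads to mm10 with Rsubread. They counted with featureCounts on a UCSC annotation and filtered low counts. The deposited values are TPM made by the authors, and the formula is not given in the sources used here. The k-means modules beside them were not used. Because the unit is TPM, no count model was fitted. In R 4.3.3, limma 3.58.1 was fitted to log2(TPM + 1) of 14225 transcripts, with 10 groups, a mean-variance trend, two-sided tests of 11 contrasts and Benjamini-Hochberg adjustment at 0.05. The pseudocount of 1 understates changes of low transcripts. Exact permutation of 3 against 3 libraries cannot go below p = 0.1. The fit was tested on simulated data. Reads were estimated from the spacing of low TPM that fitted each library best (70.2% to 77.6% of low values within 0.2 of a whole read). The rate by chance is 40% for a spacing fixed in advance, and that for a fitted spacing was not estimated. Coordinates and promoters came from RefSeq, GRCm38.p6. Every member is accounted for. Named were all members called in a contrast (otherwise that with the smallest p), at most 3 rises and 3 falls per pathway list, and the 3 nearest patterns of members with a mean of at least 5 TPM, of which 1 for Tlr4 is not reported here. Members and lists were chosen with earlier results of these data known. Deviations of libraries with the same replicate number correlated above 0.1 in 3 of 3 pairs at P20 (0.104 to 0.238). The same held for 2 of 3 pairs at E17, 1 of 3 at P7 and 6 of 18 at P60. Alternatives were a pseudocount of 0.1, a mean of at least 1 TPM, other scalings, a replicate block, only the groups compared, Xist as a covariate, no trend and each library left out. Figures used Python 3.11.15 and matplotlib 3.10.9.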

Additional observations from a re-analysis of the deposited data

Results flagged for a closer look

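The repopulation step differed between MIA and Saline offspring for 3 members by a direct test of the difference in limma. On the log2 scale, MIA minus Saline, it was 2.20 for Tlr5, -1.72 for Tlr2 and -1.31 for Cd14. Saline + MG-REP was the group that stood apart for each of these genes. The difference for Tlr5 stayed called in every alternative fit run, that for Tlr2 in all but the fit with CTRL libraries of the Xist kind alone, and that for Cd14 in 6 of 9 alternatives and 6 of 12 fits that left out 1 library.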

How the results depend on the processing

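No refitted member changed direction. In each comparison the called members, or otherwise the one with the smallest p, were refitted, and of 485 such values 447 kept their side of the threshold and 38 lost it. For MG-REP against CTRL in Saline offspring 3 to 5 members were called when 1 library was left out (4 with all), and 0 in MIA offspring or in any comparison of MIA with Saline. For the difference between them it was 2 to 3 (3 with all), and 1 with only the CTRL libraries that carried Xist. It was 3 to 4 for P7 against E17 (4 with all) and 8 for P20 against P7. For P60 against P20 (1 with all) it was 0 to 2, 0 under median-ratio scaling, quantile normalization, Xist as a covariate, no trend, and CTRL libraries with Xist only, and 2 with only the groups compared. With the replicate number as a block it was 2, the difference between MIA and Saline offspring had 4, and the block changed no other count of members. Same-numbered libraries correlated at 0.000 to 0.656 at E17, -0.110 to 0.131 at P7 and -0.531 to 0.634 at P60. At these ages the numbers thus do not pair all libraries.

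Over all transcripts, the 3805 calls for MG-REP in Saline offspring became 1911 with only the groups compared, 1886 with CTRL libraries that carried Xist and 2460 without Saline + MG-REP replicate 1. The 79 in MIA offspring became 30 with Xist as a covariate, 29 with CTRL libraries that carried Xist and 41 at the fewest when 1 library was left out. The 1496 of the difference became 638 and, without Saline + MG-REP replicate 1, 963. The 1535 for P7 against E17 became 868 with only the groups compared, and the 1700 for P60 against P20 became 365 with the covariate and 511 with CTRL libraries that carried Xist. The cause was not tested. Of the calls for MG-REP in Saline offspring 44.3% were higher, and 57.5% under median-ratio scaling. For P60 against P20 it was 35.5% and 49.4%. Depth limits Tlr7 and Tlr1, at 12 and 20 reads or fewer for NM_001290757 and NM_030682.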
